A study of Mus musculus with 56 samples.

Results

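The RNAPII-pS2 libraries of BMDMs that received LPS were compared with and without IL-4 pretreatment, all peaks taken genome-wide by the gene name and the annotation that their files give. RNAPII-pS2 is RNA polymerase II phosphorylated at serine 2 of its C-terminal repeats. The comparison held 4 of the 56 ChIP-seq libraries of the series, 2 of ctrl/LPS and 2 of IL-4 PT/LPS, with 112020 peaks. BMDMs are macrophages grown from bone marrow, here of WT C57BL/6 mice of 8 to 12 weeks after 6 days in medium with L929 cell supernatant. The ctrl/LPS cells received LPS (100 ng/ml by the labels) for 1 hr and no IL-4, and the IL-4 PT/LPS cells received IL-4 (20 ng/ml) for 24 hr before the same LPS exposure. The same experiment without LPS, ctrl/ctrl and IL-4 PT/ctrl, gave 4 further RNAPII-pS2 libraries, which serve as the reference for the change without LPS and enter the choice of genes tested, the scaling, the floor for genes without a peak and the spread between replicates. Each group had 2 libraries, which the study describes as independent biological replicates. The names of the peaks carried the treatment of the label in all 8 libraries.

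Serine 2 of the polymerase repeats is phosphorylated mainly after the polymerase has left the promoter, so this form is known from the bodies and ends of transcribed genes, and it is also found at enhancers that are transcribed into short RNAs. LPS, a component of the outer membrane of Gram-negative bacteria, acts through Toll-like receptor 4 on NF-kB, of which p65 is a subunit, and on AP-1 and interferon regulatory factors. IL-4 acts through the transcription factor STAT6 and drives the alternative polarization of macrophages.

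The value of a peak is its score in the file, of −log10 type, in which a higher score means a smaller p or q. A score rises with sequencing depth as well as with enrichment, no reads were in the files, and the depth is unknown. Scores were summed over the peaks of a gene outside intergenic sequence, put on a log2 scale, and centred per library. A log2 change is therefore a change of summed peak score and not of the amount of polymerase, and fewer cells with polymerase at a gene cannot be told apart from less polymerase per cell. A change was called at an adjusted p of at most 0.1 (limma over all genes, Benjamini-Hochberg). HOMER names the gene with the nearest start, so that a peak can carry the name of a neighbour. All peaks over a gene from its start to its end (gene span) were therefore scored as well, and genes called in the same direction by both assignments are described as called both ways. The p-values measure the spread between libraries of 2 replicates per group.

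The ctrl/LPS libraries held 26873 and 27175 peaks and the IL-4 PT/LPS libraries 29235 and 28737, both of the latter being higher. The difference of 1962 peaks was larger than the SD within either group (214 and 352), while an exact permutation test of 2 libraries against 2 cannot go below p = 0.33, the value it gave. The share of peaks at promoters was 12.4% and 12.2% in ctrl/LPS and 11.6% and 11.4% in IL-4 PT/LPS. The share at transcription termination sites was 2.76% and 2.69% in ctrl/LPS against 3.48% and 3.61% in IL-4 PT/LPS. Both shares differed in the same direction without LPS. There the termination site share was 3.417% and 3.484% in ctrl/ctrl against 4.3966% and 4.5875% in IL-4 PT/ctrl. The promoter share was 17.72% and 17.45% in ctrl/ctrl against 13.3% and 13.3% in IL-4 PT/ctrl. Replicates with LPS shared 81.3% to 83.0% of their peaks, and LPS libraries of different groups 68.6% to 75.5%. Cell type markers were counted by the name of the peak, outside intergenic sequence. Of 12 macrophage marker symbols, of which Adgre1 and Emr1 name the same gene, 9 had a peak in an LPS library. In the LPS libraries no such peak carried the name Spi1 or Cebpb, and Adgre1 was found under its older symbol Emr1. Older symbols of the other macrophage markers were not searched, so peaks of Spi1 or Cebpb under another name would not be counted. The summed score of the macrophage markers was 306 and 311 in ctrl/LPS and 303 and 341 in IL-4 PT/LPS, with 1 called lower and 1 higher. Of 8 neutrophil markers 5 had a peak, at summed scores of 54.5 and 54.7 in ctrl/LPS and 45.6 and 38.1 in IL-4 PT/LPS, with none at Ly6g, Mpo or Elane and 1 called lower. T cell markers had a peak at 2 of 6 genes, B cell markers at 1 of 6 (Ms4a1, 83.4 to 111), dendritic cell markers at 2 of 5 (summed 86.7 to 115), mast cell markers at 1 of 5 and fibroblast markers at 0 of 5, and the part of other cells in the results was not tested.

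IL-4 pretreatment changed RNAPII-pS2 in both directions in LPS-exposed macrophages. Fcgr1, the high-affinity receptor for IgG, Atg16l2, a relative of the autophagy protein ATG16L1, Sh3pxd2a, a podosome scaffold, and Kmo, the kynurenine 3-monooxygenase of tryptophan breakdown, fell most among genes with a peak in all 4 LPS libraries. Edn1, the precursor of endothelin-1, Flt1, a VEGF receptor, and Insig2, a regulator of sterol synthesis, were among the largest rises that were called both ways. Of 12717 genes with a peak, 11640 had one in 2 or more libraries and were tested, of which 697 (5.99%) were lower and 941 (8.08%) were higher in IL-4 PT/LPS than in ctrl/LPS. By gene span, 897 of 14367 genes (6.24%) were lower and 1153 (8.03%) higher. Among 10185 genes tested by both assignments, 407 (4.0%) were lower and 549 (5.39%) were higher both ways. Of the 697 lower genes 311 had peaks in both ctrl/LPS libraries and none in IL-4 PT/LPS, and of the 941 higher genes 458 had peaks in both IL-4 PT/LPS libraries and none in ctrl/LPS. In these genes the group without a peak takes the same floor value in both libraries, so its spread is not measured. The peaks of the other group alone can meet the filter for testing. Without ctrl/LPS replicate 1 or 2, 164 and 212 genes were lower and 393 and 495 higher, and without IL-4 PT/LPS replicate 1 or 2, 268 and 306 were lower and 226 and 242 higher.

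The promoters of Fcgr1 and of Edn1, which had the largest rise among genes with a peak in all 4 LPS libraries, are shown with the motifs found in them (RefSeq, GRCm38.p6, 250 bases before to 50 after the start, on the strand of the gene). The Fcgr1 promoter (chr3:96293920-96294219, minus strand) held a PU.1-type site (GAGGAAG, here on the other strand) at bases 195 to 201, in capitals. The Edn1 promoter (chr13:42301226-42301525, plus strand) held a STAT6-type site (TTCNNNNGAA, with the spacer of 4 bases known for STAT6) at bases 66 to 75, in capitals.
Fcgr1 promoter: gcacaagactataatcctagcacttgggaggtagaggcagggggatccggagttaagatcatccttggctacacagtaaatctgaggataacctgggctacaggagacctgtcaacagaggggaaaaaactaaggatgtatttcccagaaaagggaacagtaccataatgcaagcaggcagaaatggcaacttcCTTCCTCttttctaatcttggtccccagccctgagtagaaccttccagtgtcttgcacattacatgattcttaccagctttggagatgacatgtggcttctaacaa
Edn1 promoter: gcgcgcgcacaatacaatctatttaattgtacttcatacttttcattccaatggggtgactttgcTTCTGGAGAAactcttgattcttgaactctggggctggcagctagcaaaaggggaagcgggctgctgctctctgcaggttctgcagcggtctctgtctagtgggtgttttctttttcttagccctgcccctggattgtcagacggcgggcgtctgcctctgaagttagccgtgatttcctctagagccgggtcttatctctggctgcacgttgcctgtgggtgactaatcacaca
The promoter of Atg16l2, the gene with the largest fall, was scanned as well and held none of the motifs searched. Each motif was searched on both strands, with these letters alone. Of 32851 RefSeq promoters of the same length, 13.6% held the PU.1-type letters and 6.95% the STAT6-type letters, and a match is a run of letters and not a measured site.

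Fcgr1 (chr3:96282909-96293969) had summed scores of 44.58 and 34.40 in ctrl/LPS and of 8.30 and 4.72 in IL-4 PT/LPS. The groups did not overlap, and the log2 change was −2.69 ± 0.36 (SE, n = 2 per group, adjusted p = 0.011), with −2.69 by gene span. The covered length fell from 3983 and 3431 bases to 532 and 498. An intronic region (chr3:96286428-96288754) with scores of 17.72 and 17.67 in ctrl/LPS had no peak in either IL-4 PT/LPS library, and the region at the gene's start (chr3:96292373-96294206) went from 17.87 and 16.73 to 8.30 and 4.72. RNAPII-pS5, the polymerase form of initiation and pausing, gave 38.73 and 39.72 in ctrl/LPS and 5.05 and 9.08 in IL-4 PT/LPS at the same gene (adjusted p = 0.010).

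Atg16l2 (chr7:101286325-101302267) had 45.53 and 31.36 in ctrl/LPS and 4.78 and 6.57 in IL-4 PT/LPS, a change of −2.79 ± 0.38 (adjusted p = 0.011). Of its 10 peaks in the 4 libraries, 7 lay inside transcripts of the neighbouring gene Fchsd2, and by gene span it had 5.74 and 12.42 in ctrl/LPS and no peak in IL-4 PT/LPS (adjusted p = 0.034). Sh3pxd2a (chr19:47260174-47464612) had 48.46 and 48.69 in ctrl/LPS and 6.52 and 9.42 in IL-4 PT/LPS, a change of −2.67 ± 0.29 (adjusted p = 0.010). Kmo (chr1:175632193-175660853) had 27.80 and 22.02 in ctrl/LPS and 4.22 and 4.25 in IL-4 PT/LPS, a change of −2.59 ± 0.37 (adjusted p = 0.013), and was not called when bases covered replaced scores (adjusted p = 0.22). All 4 libraries of each of these genes stood apart by group, which was a condition of their choice. It held for all 697 lower and all 941 higher genes. The Kmo peak is an intronic region (chr1:175639632-175641025) whose central 300 bases (chr1:175640179-175640478, plus strand, GRCm38) held an AP-1-type site (TGANTCA) at bases 209 to 215, in capitals.
Kmo region: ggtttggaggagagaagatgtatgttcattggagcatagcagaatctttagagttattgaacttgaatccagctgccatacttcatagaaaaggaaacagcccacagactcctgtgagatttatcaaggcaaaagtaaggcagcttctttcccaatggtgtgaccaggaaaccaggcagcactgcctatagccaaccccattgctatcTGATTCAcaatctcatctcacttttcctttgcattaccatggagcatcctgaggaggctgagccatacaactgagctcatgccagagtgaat
AP-1-type letters were found in 24.2% of all intronic and intergenic regions scanned, 27.1% of the lower and 30.1% of the higher ones.

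The other 6 of the 10 largest falls were those of Fam65c, Plxnb2, Polr2g, Pknox1, Ano2 and Gmeb1, with log2 changes from −2.35 to −2.09. Plxnb2, a receptor for semaphorins, had 24.10 and 22.79 in ctrl/LPS and 6.13 and 3.72 in IL-4 PT/LPS (adjusted p = 0.017). Gmeb1, a factor that binds glucocorticoid modulatory elements, had 30.76 and 38.36 in ctrl/LPS and 7.62 and 9.04 in IL-4 PT/LPS (adjusted p = 0.013). By bases covered Gmeb1, Pknox1, Polr2g and Ano2 were not called (adjusted p = 0.21, 0.17, 0.67 and 0.13). The fall of Ano2, a chloride channel, came from 4 peaks that all lay inside Vwf, and Ano2 was not tested by gene span. The calls of Polr2g, a subunit of RNA polymerase II, and Ano2 were lost without any 1 of the 4 LPS libraries (adjusted p from 0.20 to 0.25 and from 0.19 to 0.31). The call of Fam65c was lost without ctrl/LPS replicate 1 or IL-4 PT/LPS replicate 2 (adjusted p up to 0.12). The other 7 falls kept the call without each of the 4 libraries.

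Edn1 (chr13:42301476-42307990) had summed scores of 7.38 and 3.54 in ctrl/LPS and of 61.28 and 47.40 in IL-4 PT/LPS, a change of 3.36 ± 0.75 (adjusted p = 0.041). The groups stood far apart, but the call was lost without any 1 of the 4 LPS libraries (adjusted p from 0.10 to 0.17, the lowest just above the threshold). The region over its end (chr13:42307136-42309589) had no peak in ctrl/LPS and scores of 37.85 and 29.18 in IL-4 PT/LPS (adjusted p = 0.0013 over regions), and this call held without each library. Both IL-4 PT/LPS libraries of p65 and neither ctrl/LPS library of p65 had a peak there. RNAPII-pS5 at Edn1 gave 7.33 and 3.81 in ctrl/LPS and 51.67 and 43.34 in IL-4 PT/LPS (adjusted p = 0.022).

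Flt1 (chr5:147561604-147726438) had 6.36 and 6.67 in ctrl/LPS and 50.05 and 62.32 in IL-4 PT/LPS, a change of 3.06 ± 0.34 (adjusted p = 0.011). Its strongest region (chr5:147659737-147660228, intronic) had no peak in ctrl/LPS and scores of 21.85 and 26.20 in IL-4 PT/LPS. The central 300 bases of this region held none of the motifs searched. Without LPS, Flt1 as a whole had no peak in ctrl/ctrl and summed scores of 30.57 and 30.26 in IL-4 PT/ctrl. Insig2 (chr1:121304353-121332662), which retains the activator of sterol genes in the endoplasmic reticulum, had 4.09 and 4.09 in ctrl/LPS and 27.54 and 28.76 in IL-4 PT/LPS, a change of 2.74 ± 0.44 (adjusted p = 0.016). Trak1, an adaptor of mitochondrial transport, had 5.43 and 4.32 in ctrl/LPS and 30.49 and 35.88 in IL-4 PT/LPS (2.73 ± 0.41, adjusted p = 0.014), and by gene span the change was smaller, 0.70 (adjusted p = 0.029). Flt1, Insig2 and Trak1 kept the call without each of the 4 libraries.

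Of the other 6 largest rises, Dnaic2, an axonemal dynein chain (3.11, gene span 1.92), and Gabbr2, a GABA-B receptor subunit (2.68, gene span 1.08), were called both ways. The call of Dnaic2 was lost without IL-4 PT/LPS replicate 1 (adjusted p = 0.10) and that of Gabbr2 without any 1 library (adjusted p from 0.13 to 0.17). Mical2, an actin-oxidizing enzyme, and Itga2, a collagen-binding integrin chain, lost the call by gene span (1.68, adjusted p = 0.12, and 0.46, adjusted p = 0.88). The 4 peaks named Snrpd1, a core protein of the spliceosome, all lay inside Abhd3, and the 10 peaks named 4930564C03Rik all lay inside Supt3. The call was also lost without 3 of the 4 libraries for Snrpd1 and Mical2 (adjusted p up to 0.16 and 0.20) and without any 1 library for Itga2 and 4930564C03Rik (up to 0.16 and 0.21).

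**Figure D1:**
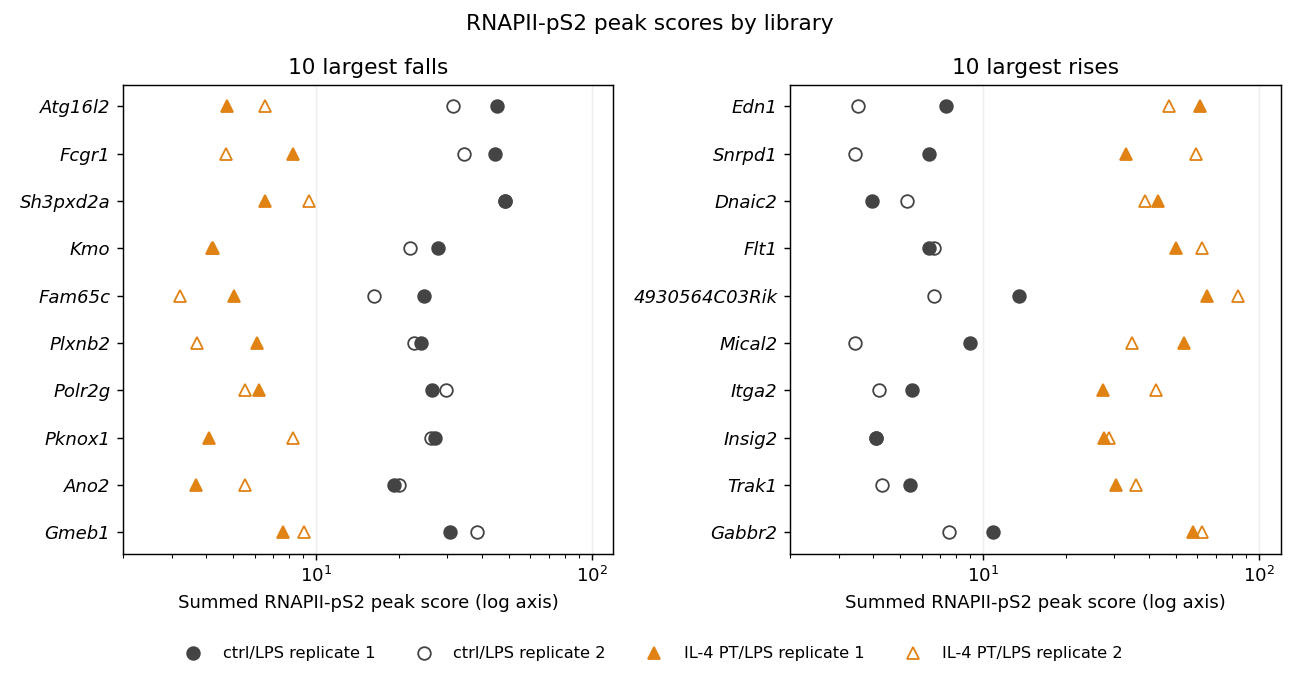
Summed RNAPII-pS2 peak score (log axis, score units) of the 10 genes with the largest fall and the 10 with the largest rise, 1 symbol per LPS library, circles for ctrl/LPS and triangles for IL-4 PT/LPS. The triangles lie left of the circles for the falls (Fcgr1 8.30 and 4.72 against 44.58 and 34.40) and right of them for the rises (Edn1 61.28 and 47.40 against 7.38 and 3.54), which is how these genes were chosen.

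Among genes with peaks in 1 LPS group alone, those with the highest scores show both changes and switches of a peak's name. No fold is given where a group has no peak, and no peak here means none of that gene's name outside intergenic sequence. Slamf1, a receptor of leukocytes, had no peak in ctrl/LPS and 42.27 and 29.16 in IL-4 PT/LPS (adjusted p = 0.010), and Cdh1, the cell adhesion protein E-cadherin, had none in ctrl/LPS and 32.38 and 30.98 in IL-4 PT/LPS (adjusted p = 0.0045). Slc22a23, a membrane transporter, had none in ctrl/LPS and 34.05 and 34.85 in IL-4 PT/LPS. By gene span, which counts peaks named after neighbours, Slc22a23 had 4.73 and 8.46 in ctrl/LPS, and Cdh1 had 8.10 in ctrl/LPS replicate 1. Ppef2, a phosphatase, had 33.75 and 22.03 in ctrl/LPS and no peak in IL-4 PT/LPS (adjusted p = 0.011), and its RNAPII-pS5 peaks, 19.89 and 23.13 in ctrl/LPS, were likewise absent. A region within the gene span that the files class as intergenic (chr5:92254432-92254932) kept a score of 7.42 in IL-4 PT/LPS replicate 1. BB557941 (35.53 and 23.38) and BC016579 (20.46 and 32.96) had peaks in ctrl/LPS alone as well. These 6 genes were called both ways and kept the call without each library.

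The same peak can count as a fall of 1 gene and a rise of another. The peak near the start of Eif4a2 (chr16:23107526-23108556 in ctrl/LPS replicate 1) was named Eif4a2 in ctrl/LPS (49.85 and 41.97) and Snord2, a small nucleolar RNA in that gene, in IL-4 PT/LPS (42.88 and 38.27), and by gene span Eif4a2 did not pass the test (−0.22, adjusted p = 0.90). The ctrl/LPS peak of C130046K22Rik was overlapped in both IL-4 PT/LPS libraries by a peak named Gosr2 (11.76 and 13.53 against 33.00 and 35.38), and the gene span gave a smaller fall of −1.48 (adjusted p = 0.025). Kif23, Glis3 and Dpys lost the call by gene span (adjusted p = 0.44, 0.19 and 0.21). A peak of the other group under another name overlapped the peaks of 27 of the 311 genes with peaks in ctrl/LPS alone (8.68%) and of 21 of the 458 with peaks in IL-4 PT/LPS alone (4.59%).

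Among the 12 lists of genes by function, that of alternative activation had the most rises and also the most members. The lists were chosen with earlier results of these data known. This one includes Edn1, Hbegf and Klf4, which the study reported as activated by IL-4. Of 34 members 32 were tested, 5 rose and 1 fell, each called both ways, with a median change of 0.31 beside −0.04 over all genes tested and 8.08% of all genes higher. Genes without a peak in any LPS library take a change of −0.04 from the centring alone. Over all genes with a peak in all 4 LPS libraries the median was 0.024. Besides Flt1, Edn1 and Cdh1, the rises were those of Retnla, a secreted marker of IL-4-treated macrophages, and Slc7a2, a transporter of arginine (both named because all called members of the list are given). Retnla had no peak in ctrl/LPS and 17.75 and 27.74 in IL-4 PT/LPS (adjusted p = 0.011), below its scores of 54.93 and 57.84 in IL-4 PT/ctrl. Slc7a2 had a single score of 2.78 in ctrl/LPS and 28.56 and 25.72 in IL-4 PT/LPS (adjusted p = 0.013). The fall was that of Ccl24, a chemokine for eosinophils, from 32.52 and 27.42 in ctrl/LPS to 7.26 and no peak in IL-4 PT/LPS (adjusted p = 0.032). The call of Ccl24 was lost without ctrl/LPS replicate 1 or 2 (adjusted p up to 0.13), whereas its promoter region (chr5:135572943-135573462), with no peak in IL-4 PT/LPS, kept the call. By bases covered Ccl24 was not called (−0.45, adjusted p = 0.62), nor was its RNAPII-pS5 score (−0.18, adjusted p = 0.80). Pparg, a nuclear receptor of lipid metabolism, gave 121.21 and 125.05 in ctrl/LPS and 109.81 and 95.95 in IL-4 PT/LPS (adjusted p = 0.34). The list of C-type lectins and Fc receptors held 2 falls, those of Fcgr1 and Syk, the kinase that signals from them, and 1 rise, that of the lectin Clec4b1, among 14 members (median −0.26), beside 5.99% of all genes lower and 8.08% higher. Syk went from 86.84 and 76.59 in ctrl/LPS to 47.79 and 53.96 in IL-4 PT/LPS (−0.72 ± 0.16, adjusted p = 0.043), and Clec4b1 from 10.67 and 11.27 to 25.58 and 30.50 (1.31 ± 0.30, adjusted p = 0.044). Both calls were lost without any 1 library (adjusted p up to 0.18), and by bases covered Syk had the opposite sign (0.12, adjusted p = 0.77) and Clec4b1 gave 0.02 (adjusted p = 0.98).

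Genes of the LPS response were described by the same lists, to be read beside 5.99% of all genes lower and 8.08% higher (4.0% and 5.39% both ways) and a median of −0.04 over all genes. Of 28 inflammatory cytokines and chemokines 26 were tested, with 0 lower and 1 higher by limma and a median of −0.10, and at an unadjusted p of at most 0.05 there were 3 lower and 1 higher. Tnf had 65.13 and 69.26 in ctrl/LPS and 66.70 and 67.43 in IL-4 PT/LPS, a change of −0.04 ± 0.14 (adjusted p = 0.96). The rise was that of Cxcl1, a chemokine for neutrophils, with no peak of that name and 6.43 in ctrl/LPS and 16.99 and 17.08 in IL-4 PT/LPS (adjusted p = 0.089). This call was lost without ctrl/LPS replicate 1 or either IL-4 PT/LPS replicate (adjusted p up to 0.27), and with intergenic peaks included the change was −0.12. Nlrp3, the sensor of the inflammasome, had 36.19 and 33.19 in ctrl/LPS and 37.77 and 30.94 in IL-4 PT/LPS (−0.06 ± 0.24, adjusted p = 0.98). In the inflammasome list of 14, Nlrc4, another sensor, fell from 22.75 and 23.64 to 9.32 and 12.26 (−1.16 ± 0.31, adjusted p = 0.064) and Pycard, the adaptor ASC, had no peak in ctrl/LPS and 6.94 and 10.75 in IL-4 PT/LPS (adjusted p = 0.093). Both calls were lost without any 1 library (adjusted p up to 0.29).

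Il1b, the precursor of interleukin-1β, had no peak of its name under LPS, and the peaks over the gene were named Gm14047. The gene span (chr2:129364569-129371164) gave 46.43 and 41.37 in ctrl/LPS and 40.59 and 32.90 in IL-4 PT/LPS (−0.30, adjusted p = 0.74). The region over its end (chr2:129363098-129366499) went from 36.33 and 31.28 to 26.47 and 22.89 and did not pass the test (adjusted p = 0.56). An intergenic region upstream of its start (chr2:129379707-129381794) fell from 36.40 and 25.29 to 14.46 and 9.45 (−1.32 ± 0.30, adjusted p = 0.030 over regions). It was chosen after its values were seen, and the call was kept without 2 of the 4 libraries (adjusted p up to 0.15 without the others). Il18 gave 8.62 and 13.94 in ctrl/LPS and 26.82 and 17.90 in IL-4 PT/LPS (adjusted p = 0.32).

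Of 26 genes of LPS sensing and Toll-like receptor signalling 25 were tested, 2 were lower and 0 higher, and 0 were called both ways by limma (4 lower and 3 higher at an unadjusted p of at most 0.05), beside 5.99% and 8.08% of all genes. Irak3, an inhibitor of Toll-like receptor signals, went from 37.20 and 29.73 to 14.90 and 10.69 (−1.44 ± 0.29, adjusted p = 0.029), but its gene span gave −0.40 (adjusted p = 0.50), and without ctrl/LPS replicate 1 or IL-4 PT/LPS replicate 2 the call was lost (adjusted p up to 0.13). The span includes a region over its end (chr10:120141014-120141649), named Helb, that went from 13.84 and 7.46 to 28.93 and 21.75 (adjusted p = 0.078, up to 0.30 without 1 library). Tbk1, a kinase of the interferon branch, gave −0.71 (adjusted p = 0.069) by name and −0.55 (adjusted p = 0.65) by span, and lost the call without any 1 library (adjusted p up to 0.22). The LPS co-receptor Cd14 had 35.87 and 34.35 in ctrl/LPS and 33.96 and 46.29 in IL-4 PT/LPS (adjusted p = 0.86). By bases covered Cd14 was called lower (3219 and 3370 against 2119 and 2035, −0.83, adjusted p = 0.040), and so was its RNAPII-pS5 score (−0.94, adjusted p = 0.078). Tlr2 had 11.39 and 14.53 in ctrl/LPS and 23.13 and 23.59 in IL-4 PT/LPS without passing the test (0.82 ± 0.32, adjusted p = 0.17). Of 18 NF-kB subunits and inhibitors 1 fell, Bcl3, from 34.72 and 27.61 to 15.82 and 9.27 (−1.39 ± 0.42, adjusted p = 0.090), a call lost without any 1 library (adjusted p up to 0.31). Nfkbia, the inhibitor that NF-kB itself induces, stayed close between groups at 129.25 and 128.97 against 121.80 and 138.37 (−0.03 ± 0.11, adjusted p = 0.97). Clec4d (0.01) and Abca1 (−0.31) were not called either.

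Of 22 immediate-early and AP-1 genes 21 were tested, 3 fell and 1 rose, beside 5.99% and 8.08% of all genes, with a median of −0.29 beside −0.04 over all genes. Egr1, an early growth response factor, went from 11.83 and 14.70 in ctrl/LPS to 3.64 and 3.52 in IL-4 PT/LPS (−1.92 ± 0.44, adjusted p = 0.043). Fosl1, a partner of JUN proteins, had 6.91 and 3.50 in ctrl/LPS and no peak in IL-4 PT/LPS (adjusted p = 0.078). Jdp2, a JUN dimerization protein, had 11.46 and 12.54 in ctrl/LPS and no peak in IL-4 PT/LPS, and was not called by gene span (adjusted p = 0.99). Myc rose, with no peak in ctrl/LPS and 11.95 and 17.86 in IL-4 PT/LPS (adjusted p = 0.043). The calls of Egr1, Fosl1 and Myc were lost without any 1 library (adjusted p up to 0.15, 0.27 and 0.17). Fos gave 36.36 and 29.92 in ctrl/LPS and 25.14 and 24.35 in IL-4 PT/LPS, a difference that did not pass the test (−0.46 ± 0.21, adjusted p = 0.27). Hbegf (−0.11) and Klf4 (0.45, with a peak in 1 library of each group) were not called.

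Interferon response genes held 2 rises among 31 tested (of 32), those of the transcription factors Irf9 and Irf1, beside 8.08% of all genes higher. Irf9 had 39.45 and 33.18 in ctrl/LPS and 62.17 and 60.87 in IL-4 PT/LPS (0.73 ± 0.15, adjusted p = 0.032), although by bases covered the sign was opposite (−0.14) and the call was kept only without ctrl/LPS replicate 1 (adjusted p up to 0.13 otherwise). Irf1 was called by name (1.26, adjusted p = 0.046) and not by gene span (0.50, adjusted p = 0.42), nor by name without any 1 library (adjusted p up to 0.19). Of the remaining lists, feedback and mRNA decay genes held 1 fall among 17, Pde4b (−0.44 ± 0.13, adjusted p = 0.080, 0.02 by bases covered, and lost without any 1 library, adjusted p up to 0.28). Genes of nitric oxide, prostaglandin and the oxidative burst (15 of 17 tested) and of the RNAPII elongation machinery (29 of 33 tested) each held 1 rise and 0 falls, and 0 called both ways by limma (1 lower and 1 higher and 0 lower and 2 higher at an unadjusted p of at most 0.05). Those rises were Ncf1, whose gene span gave −0.05 (adjusted p = 0.99), and Supt16, whose gene span had 6.23 and 6.80 in ctrl/LPS and no peak in IL-4 PT/LPS (adjusted p = 0.29) and whose call was lost without ctrl/LPS replicate 1 or IL-4 PT/LPS replicate 2 (adjusted p up to 0.12). Lipid handling and nuclear receptor genes (16 of 17 tested) held 2 rises. Lpl, a lipase, had no peak and 4.46 in ctrl/LPS and 16.29 and 18.07 in IL-4 PT/LPS (adjusted p = 0.039, lost without ctrl/LPS replicate 1 or either IL-4 PT/LPS replicate, up to 0.16), and Nr1h3, the receptor LXRα, lost the call by gene span (adjusted p = 0.12).

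**Figure D2:**
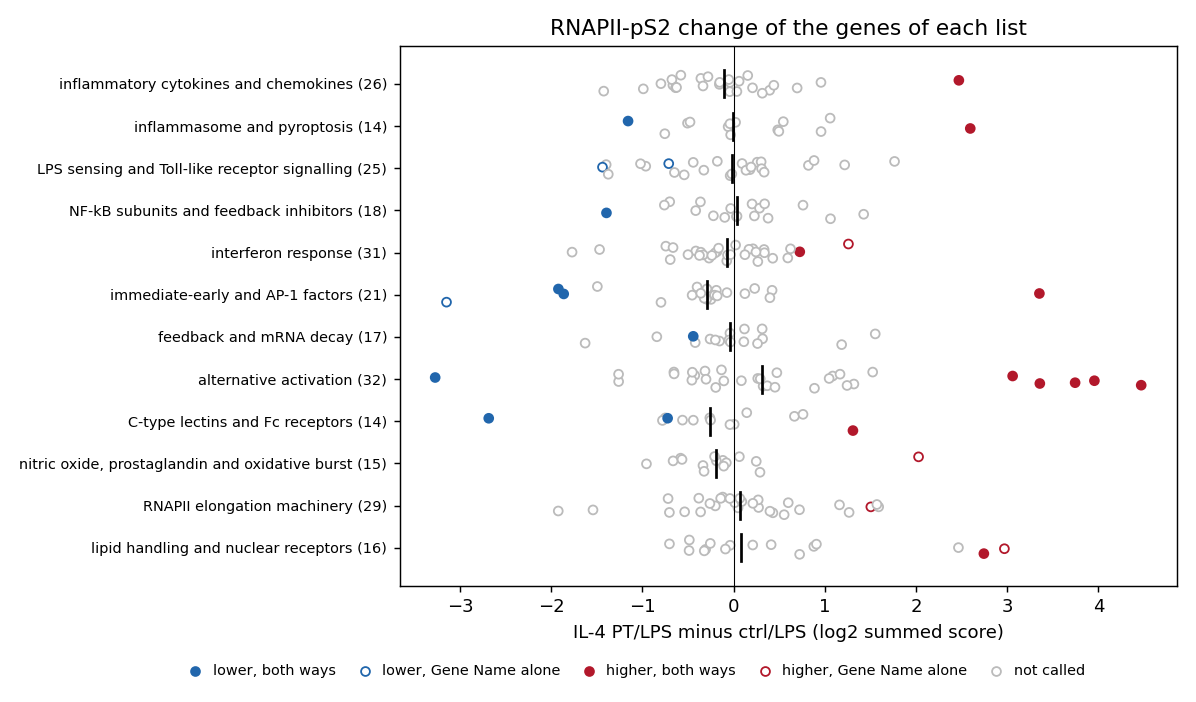
Change of RNAPII-pS2 (log2 summed score, IL-4 PT/LPS minus ctrl/LPS) of each tested gene of 12 lists, with the number tested in brackets. Filled symbols mark genes called both ways and black bars the list medians, which lie between −0.29 (immediate-early and AP-1 factors) and 0.31 (alternative activation).

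The study sorted LPS-induced genes by RNA-seq into those whose induction IL-4 pretreatment attenuated, left alone or increased. The RNA came from the same kind of cells in other libraries, so the lists were not chosen on RNAPII-pS2. The RNA was taken after a longer LPS exposure than the RNAPII-pS2 libraries had. The study states no adjustment of the p-values that sorted the genes. Over the bodies of these genes, the paper reports RNAPII-pS2 coverage that resembled the mRNA in each list. Of 476 attenuated genes tested (of 520), 41 were lower and 17 higher, of 623 insensitive genes (of 686) 23 were lower and 30 higher, and of 134 increased genes (of 144) 7 were lower and 14 higher. The calls both ways were 21 lower and 5 higher, 11 lower and 17 higher, and 4 lower and 10 higher. Over all genes 5.99% were lower and 8.08% higher, and 4.0% and 5.39% both ways. The median changes of the lists were −0.12, −0.03 and 0.16, beside −0.04 over all genes. Among genes with a peak in all 4 LPS libraries they were −0.11, −0.039 and 0.088, beside 0.024 over all such genes. Most genes of each list did not pass the test. Without centring the median of the insensitive genes was 0.00988, beside 0.00378 over all genes.

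Changes without LPS show which differences were already there after IL-4 alone. In IL-4 PT/ctrl against ctrl/ctrl, whose contrast holds no LPS library but shares the fit, filter and scaling, 1178 genes (10.1%) were lower and 1227 (10.5%) higher. Of the 407 genes lower both ways under LPS, 108 were also lower without LPS, and of the 549 higher, 163 were also higher. Of all 697 lower genes, 183 were called lower and 24 higher without LPS, and of all 941 higher genes, 276 were called higher and 36 lower. The median change without LPS was −0.44 over the lower and 0.51 over the higher genes called both ways, beside −0.05 over all genes. Gabbr2 (4.47), Mical2 (4.01), Trak1 (2.31) and Atg16l2 (−1.62) were among the named genes called in the same direction without LPS.

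**Figure D3:**
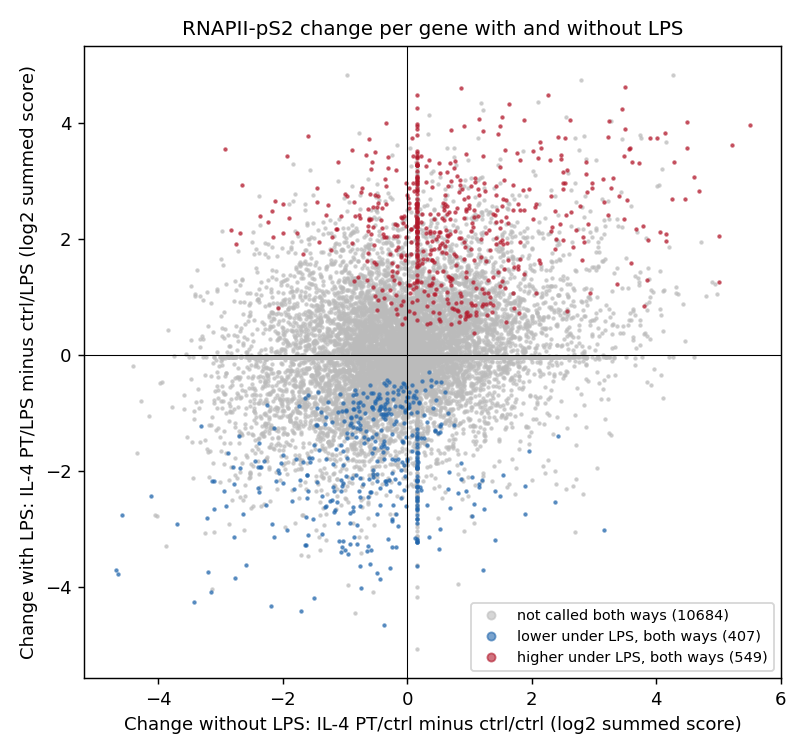
Change of RNAPII-pS2 per gene (log2 summed score) with LPS (y axis, IL-4 PT/LPS minus ctrl/LPS) against the change without LPS (x axis, IL-4 PT/ctrl minus ctrl/ctrl), 1 point per gene, with the 407 genes lower and the 549 higher both ways in colour. Genes in the vertical line of points right of 0 have no peak in any library without LPS.

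The change with LPS and the change without it were compared directly by their interaction, which was called for 1187 genes (10.2%). It rests on all 8 libraries: without any 1 of the 4 LPS libraries, between 0 and 2 genes were called. Of the 1187 genes 489 were also called under LPS, 201 lower and 288 higher, and 292 of these had the opposite sign without LPS. Insig2 had 14.09 and 13.68 in ctrl/ctrl and 5.74 and 14.04 in IL-4 PT/ctrl, against the rise from 4.09 and 4.09 under LPS (interaction 3.21 ± 0.62, adjusted p = 0.045). Kmo had 34.52 and 24.23 in ctrl/ctrl and 24.20 and 15.04 in IL-4 PT/ctrl (interaction −2.14 ± 0.52, adjusted p = 0.068), and Plxnb2 had 23.78 and 16.90 against 20.64 and 14.50 (interaction −2.28 ± 0.55, adjusted p = 0.067). Without LPS the groups overlapped for Insig2 and Plxnb2, and for Kmo they did not, with 24.23 and 24.20 as the nearest values. With LPS the groups did not overlap, which was a condition for naming these genes. The opposite pattern was a rise with IL-4 alone and no call under LPS. Hbegf, an EGF receptor ligand, had 6.06 and 10.84 in ctrl/ctrl, 21.32 and 24.25 in IL-4 PT/ctrl, and between 26.99 and 29.45 in the 4 LPS libraries (interaction −1.75 ± 0.47, adjusted p = 0.081). Nfkbia had 75.15 and 71.95 in ctrl/ctrl and 112.05 and 125.20 in IL-4 PT/ctrl (interaction −0.88 ± 0.16, adjusted p = 0.041). Slc7a11, a cystine transporter, had 53.35 and 36.05 in ctrl/ctrl and 107.47 and 116.18 in IL-4 PT/ctrl, and under LPS 95.80 and 85.88 in ctrl/LPS and 68.90 and 80.56 in IL-4 PT/LPS (interaction −1.83 ± 0.26, adjusted p = 0.029).

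RNAPII-pS5 was measured in separate libraries of the same groups. Of 10610 genes, 632 (5.96%) were lower and 1035 (9.75%) higher in RNAPII-pS5. Of the 336 genes lower both ways in RNAPII-pS2 that were tested in RNAPII-pS5, 102 were also lower and 11 higher, and of the 473 higher genes, 157 were also higher and 4 lower. Their median RNAPII-pS5 changes were −0.74 and 0.99, beside 0.03 over all genes. The difference between the antibodies was itself called for 290 of 10224 genes (2.84%), 124 lower and 166 higher in RNAPII-pS2. The scores of the antibodies are on different scales, so a difference of log2 score changes is not a difference in the amount of polymerase. Without centring the count was 273 with 197 lower and 76 higher, so the direction of the imbalance depended on the scaling, and without any 1 RNAPII-pS2 library of the LPS groups the count was 98 to 133. Retnla (26.56 and 13.46 in IL-4 PT/LPS, no RNAPII-pS5 peak in ctrl/LPS), Slamf1 (19.19 and 19.26, none in ctrl/LPS) and Lpl (25.48 and 18.71, none in ctrl/LPS) rose in both antibodies. Kif23 and Slc22a23 were among the genes whose change differed between the antibodies (adjusted p = 0.026 and 0.030). Their RNAPII-pS5 scores under LPS were low. Kif23 had 3.38 in ctrl/LPS replicate 1 alone, and Slc22a23 had 3.90 and 5.23 in IL-4 PT/LPS alone, the same direction as in RNAPII-pS2.

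Regions take no assignment to genes. The peaks of the 8 libraries merged into 52040 regions, and 39261 of them had one in 2 or more libraries. Of these 3372 (8.59%) were lower and 5504 (14.0%) were higher in IL-4 PT/LPS than in ctrl/LPS. Peaks in 1 LPS group alone were found in 2134 of the lower and 3574 of the higher regions, against 4545 of the 30385 not called. In those regions the other LPS group holds the floor, so the call is one of presence against absence of a peak. All called regions (100%) had a peak in both libraries of the LPS group with the higher score. Introns and intergenic sequence held 87.6% of the lower, 83.4% of the higher and 77.9% of the other regions. Regions at termination sites were called higher in 20.1% and lower in 4.66% of 1287, and promoter regions higher in 9.17% and lower in 4.94% of 4940. Intronic regions were higher in 13.4% and lower in 9.36%, and intergenic regions higher in 16.1% and lower in 9.58%. Of the lower regions 59.4% had a peak in both ctrl/ctrl libraries and 42.1% in both IL-4 PT/ctrl libraries, of the higher regions 23.3% and 44.8%, and of the regions not called 57.4% and 53.0%. Called regions met the filter of 2 libraries through their higher LPS group alone, whereas regions not called could meet it through libraries without LPS. The shares of the regions not called are thus shaped by the filter and are no neutral reference. Without ctrl/LPS replicate 1 or 2 there were 1931 and 1938 lower and 4949 and 5107 higher regions. Without IL-4 PT/LPS replicate 1 or 2 there were 2699 and 2687 lower and 2227 and 2236 higher regions, so the excess of higher regions was turned.

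**Figure D4:**
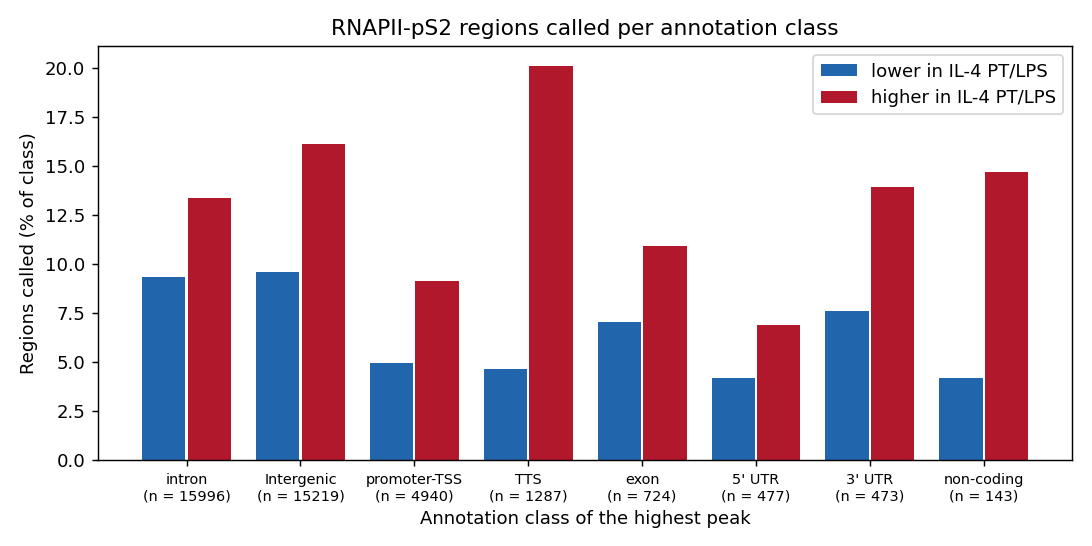
Share of RNAPII-pS2 regions (% of the class) called lower or higher in IL-4 PT/LPS, by the annotation class of the region, with the number of regions under each class. Termination sites have the largest share higher (20.1%), and introns and intergenic sequence the largest shares lower (9.36% and 9.58%).

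Most of the 5 largest falls and rises among regions with a peak in all 4 LPS libraries, which were chosen by these values, lay outside genes. The largest fall was at an intergenic region (chr6:37732242-37732824) nearest to Trim24, from 50.28 and 52.07 in ctrl/LPS to 7.42 and 8.39 in IL-4 PT/LPS (−2.64 ± 0.18, adjusted p = 0.0013). The next were in an intron of Sntb2 (chr8:106972552-106973279, 19.37 and 26.38 to 4.27 and 3.26), near Gabbr1 (chr17:37044630-37045208, 40.65 and 33.37 to 5.08 and 7.55), near Dad1 (chr14:54233077-54234029, 40.15 and 43.70 to 9.45 and 5.66) and in an intron of Cdc42se2 (chr11:54726845-54727782, 33.92 and 30.47 to 4.07 and 9.33). The largest rise was at an intergenic region (chr4:32267938-32268690) nearest to Bach2, a transcriptional repressor, from 3.23 and 3.45 to 30.57 and 36.77 (3.39 ± 0.37, adjusted p = 0.0018). Rises followed near Zbtbd6 (chr14:79445344-79446003, 7.22 and 4.91 to 52.99 and 64.57), near Marcks (chr10:37183923-37185065, 2.91 and 3.25 to 29.81 and 29.22), inside Abhd3 and near Mef2c (chr13:83064771-83065942, 3.11 and 4.62 to 33.03 and 26.88). All 5 rises had RNAPII-pS5 peaks in both IL-4 PT/LPS libraries and in neither ctrl/LPS library. The 10 calls were kept without each of the 4 libraries. The central 300 bases of the largest fall (chr6:37732384-37732683) and of the largest rise (chr4:32268165-32268464) are shown on the plus strand of GRCm38, with AP-1-type sites at bases 122 to 128 and 173 to 179 and the letters TATAAA at bases 214 to 219 of the former in capitals, and with none of the 5 motifs found in the latter.
Largest fall: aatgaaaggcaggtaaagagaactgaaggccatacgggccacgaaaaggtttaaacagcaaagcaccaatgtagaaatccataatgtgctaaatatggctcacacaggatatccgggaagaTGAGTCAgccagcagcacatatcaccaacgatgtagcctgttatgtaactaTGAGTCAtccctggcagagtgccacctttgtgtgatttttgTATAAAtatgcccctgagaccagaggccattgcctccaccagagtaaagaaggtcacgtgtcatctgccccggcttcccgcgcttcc
Largest rise: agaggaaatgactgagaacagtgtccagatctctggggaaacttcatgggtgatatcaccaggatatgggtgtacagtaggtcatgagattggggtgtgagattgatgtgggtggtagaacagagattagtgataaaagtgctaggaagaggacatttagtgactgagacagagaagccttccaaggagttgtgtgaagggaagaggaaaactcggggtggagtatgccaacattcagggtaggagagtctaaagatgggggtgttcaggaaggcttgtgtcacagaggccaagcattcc

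Motif letters were counted in the central 300 bases of all regions, with no test. STAT6-type letters (TTCNNNNGAA) were in 12.5% of the higher, 7.15% of the lower and 8.98% of the other regions. PU.1-type letters (GAGGAAG), those of a macrophage lineage factor, were in 17.8%, 26.8% and 22.5%. AP-1-type letters (TGANTCA) were in 26.7%, 25.7% and 19.6%, and NF-kB-type letters (GGG and TTTCC with any 2 bases between them) in 3.16%, 2.85% and 2.46%. The letters TATAAA were in 16.01%, 15.5% and 14.5%. The mean GC content was 46.4% in the higher, 46.3% in the lower and 48.1% in the other regions.

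Peaks of p65 overlapped these regions unequally, in separate libraries of the same experiment. In ctrl/LPS, p65 peaks overlapped 67.5% and 68.7% of the lower, 35.2% and 36.1% of the higher and 48.7% and 49.5% of the other regions. In IL-4 PT/LPS they overlapped 61.5% and 63.9% of the lower, 67.5% and 70.0% of the higher and 55.7% and 57.5% of the other regions. The p65 lists held 26305 and 26820 peaks in ctrl/LPS and 36738 and 38955 in IL-4 PT/LPS, and the part of this difference in the shares was not tested. Without LPS, 31.9% and 31.97% of the lower and 6.81% and 6.65% of the higher regions had a p65 peak in ctrl/ctrl. Among the other regions the share in ctrl/ctrl was 21.5% and 21.5%. In IL-4 PT/ctrl the shares lay closer together, at 27.3% and 26.3% of the lower, 15.8% and 15.0% of the higher and 25.6% and 23.9% of the other regions. RNAPII-pS5 peaks overlapped 39.9% and 42.7% of the lower, 17.7% and 19.3% of the higher and 35.7% and 37.7% of the other regions in ctrl/LPS. In IL-4 PT/LPS, RNAPII-pS5 peaks overlapped 21.4% and 22.2% of the lower, 47.7% and 49.2% of the higher and 41.1% and 41.5% of the other regions.

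**Figure D5:**
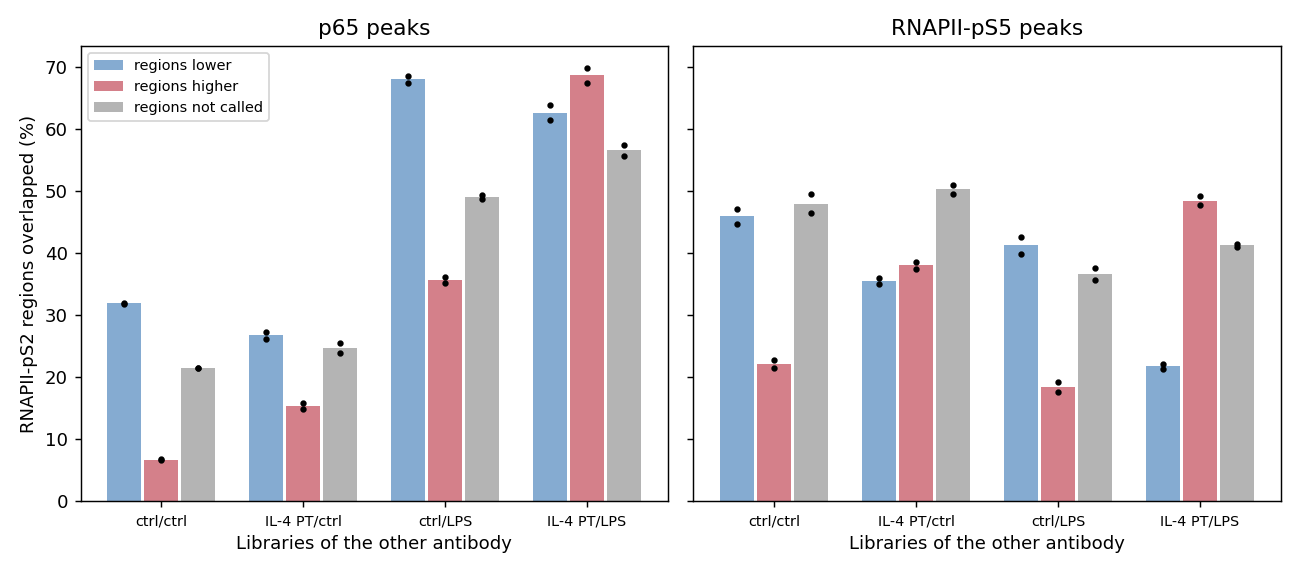
Share of RNAPII-pS2 regions (%) overlapped by at least 1 bp by p65 peaks (left) or RNAPII-pS5 peaks (right) of each group, for regions lower, higher or not called in IL-4 PT/LPS, with points for the 2 libraries and bars for their mean. In ctrl/LPS both antibodies overlap a larger share of the lower than of the higher regions (p65 67.5% and 68.7% against 35.2% and 36.1%), and in IL-4 PT/LPS a larger share of the higher regions (p65 67.5% and 70.0% against 61.5% and 63.9%).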

How the data were processed

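RNAPII-pS2 ChIP-seq of BMDMs was analysed from 1 annotated peak list per library. Per the labels and the methods of the study, chromatin was cross-linked with DSG and formaldehyde, and the authors called peaks with MACS2 (2.0.10) on reads aligned to mm10 with BWA (0.7.10), removed blacklisted regions and annotated the peaks with HOMER (4.2); SAMtools (0.1.19) is also named in the submitters' processing notes. The deposited Peak Score was taken as a −log10 p or q value, which of them not being stated in the sources used here. The lists hold no reads, so depth is unknown, scores are not scaled for it, and a gene without a peak is below the caller's threshold rather than free of polymerase.

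Summed scores per gene, with 1.39, the lowest score of the 8 libraries, for a gene without a peak (1.44 for RNAPII-pS5), were put on the log2 scale and centred on the median of genes with a peak in all 8 libraries. Genes and regions (peaks merged at an overlap of at least 1 bp, highest score per region) that had a peak in 2 or more libraries were tested with limma (3.58.1, R 4.3.3, with a mean trend) over all 8 libraries, two-sided, with Benjamini-Hochberg adjustment. Tables were made with pandas 2.3.3, numpy 2.4.6 and scipy 1.17.1 in Python 3.11.15. The fit was tested on simulated data for 11640 genes with normal noise, and changes were planted only in genes above the median mean score. It recovered 33% of 100 changes of 1 and 86% of 100 changes of 2 on the log2 scale. Of the unchanged genes it called 0.18%. The simulation held no switches of a peak's name. Whether these shares hold for genes with lower scores, with such switches or with peaks in 1 LPS group alone was not tested. Replicates correlated with r of 0.86 to 0.90 across 5244 genes, which are not independent replicates.

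The genes named were the 10 called genes with the largest fall and the 10 with the largest rise among those with a peak in all 4 LPS libraries and no overlap between groups, up to 6 per direction with peaks in 1 LPS group alone by highest score, 13 genes of interest to the study, and examples from 12 lists (2 called members per direction with the smallest p and 1 member not called with the highest mean score). Fosl1, Retnla and Slc7a2 were added to give every called member of their lists. The members and lists were chosen with earlier results of these data known. The gene span, the gene of the annotated transcript and a minimum score of 2 were added as alternatives after the data were seen, as were the example regions.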

Additional observations from a re-analysis of the deposited data

Results flagged for a closer look

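The results given here are those in which the change with IL-4 pretreatment differed between 2 settings by a test of the difference itself. With LPS against without LPS, the interaction was called for 1187 genes, 580 of them positive and 607 negative, and without any 1 LPS library for 0 to 2 genes. Among named genes the interaction was −1.82 for Fcgr1, −1.51 for Sh3pxd2a, −2.14 for Kmo and −2.28 for Plxnb2, all of which fell under LPS. It was 3.26 for Itga2 and 3.21 for Insig2, which rose under LPS. It was −1.21 for Fos and −1.75 for Hbegf, which were not called under LPS. Between the antibodies, whose scores are on different scales, the change under LPS differed for 290 genes.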

How the results depend on the processing

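With 697 lower and 941 higher genes as the reference, there were 290 and 302 when a peak in all 4 LPS libraries was required, 1070 and 1427 with intergenic peaks, 428 and 514 by bases covered, 357 and 517 at an adjusted p of at most 0.05, 1134 and 1477 at an unadjusted p of at most 0.05, and 164 to 306 and 226 to 495 without 1 library. Other scalings gave 583 and 908 (no centring), 606 and 698 (quantile normalization) and 885 and 917 (4 LPS libraries only). A floor 4 times as high gave 540 and 735, of which 997 were shared with the reference calls. At that floor 51 of the 1638 reference calls had the opposite sign. The interaction, 1187 genes, gave 678 with a floor 4 times as high, 666 with a peak in all 4 LPS libraries, 1815 with intergenic peaks, 686 by bases covered, 718 with scores of at least 5, 422 and 2578 at the adjusted and unadjusted threshold of 0.05, 1879 by gene span, and 0 to 2 without 1 library. The difference between antibodies, 290 genes, ranged from 98 to 297 without 1 library. Regions numbered 615 lower and 940 higher with a peak in all 4 LPS libraries, and 1931 to 2699 and 2227 to 5107 without 1 library. With scores of at least 5 the promoter share differed by −0.32 and the termination site share by 0.58 percentage points.

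The scores showed no pairing by replicate number: deviations of same-numbered samples correlated between −0.026 and 0.019 over 5244 genes. Whether same-numbered samples came from the same mice cannot be told from these correlations. With the replicate block there were 575 lower and 789 higher genes, 606 interactions, 194 differences between antibodies, and 3138 lower and 5228 higher regions.

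The median of the attenuated genes was −0.20 by bases covered, −0.19 with the 4 LPS libraries only and −0.169 to −0.106 without 1 library. That of the insensitive genes was 0.00988 without centring (0.00378 over all genes), −0.0815 by bases covered, −0.076 with the 4 LPS libraries only and −0.067 to −0.0068 without 1 library. That of the increased genes was 0.071 with quantile normalization, 0.088 with a peak in all 4 LPS libraries, 0.24 with intergenic peaks, 0.044 by the highest peak, 0.26 by bases covered, 0.099 by annotated transcript, 0.065 by gene span and 0.091 to 0.19 without 1 library.

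Of 1556 values of 76 named genes under these alternatives 1340 stayed on their side of the threshold, 192 lost the call, 12 gained it and 12 had the opposite sign with a call before or after the change of setting. Of the 1340, 30 changed sign with no call in either setting. The 12 were Eif4a2 (1.92), C130046K22Rik (0.86), Snord2 (−0.22) and Ncf1 (−0.053) by annotated transcript, Glis3 (−2.06), Ncf1 (−0.055) and Supt16 (−2.27) by gene span, Cd14 (−0.83, adjusted p = 0.040), Irf9 (−0.14), Pde4b (0.021) and Syk (0.12) by bases covered, and Cxcl1 (−0.12) with intergenic peaks. By bases covered the calls of Kmo, Polr2g, Pknox1, Ano2, Gmeb1, Snrpd1, Irak3, Nlrc4, Tbk1, Bcl3, Irf1, Jdp2, Myc, Fosl1, Ccl24 and Clec4b1 were lost. The causes were not tested. The unknown depth limits the comparison of scores between libraries.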
